A study of Mus musculus with 6 samples.

Results

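The 39 genes described here encode proteins of DNA replication: the factors that license origins, the helicase that opens DNA, the polymerases and clamp loaders that copy it, the enzymes that supply nucleotides, and the factors that start S phase and repackage new DNA. They were listed by symbol, with no measured value in the rule but with earlier results of these data known, and all 39 were found among the 25140 genes of the count table and were tested. RNA-seq was done on passage 1 primary cardiac fibroblasts from adult C57BL/6 hearts, with no allele or transgene named in the labels, to see which genes change as TGFβ turns fibroblasts into myofibroblasts. All cells were grown in DMEM with 25 mM glucose and 10% FBS and moved to 1% FBS for 16 h before treatment by the labels (the general methods of the study give a longer time), so the vehicle cells were in low serum too. 3 libraries came from cells given vehicle and 3 from cells given 10 ng/ml TGFβ for 24 h. The sources conflict on the cells of these libraries: the results text of the study names MEFs, fibroblasts of the mouse embryo, for this RNA-seq, but its RNA-seq methods and the labels name cardiac fibroblasts, and the labels were followed. The study states 3 biological replicates, and neither the pooling of hearts nor the age or sex of the animals is given in the sources used here.

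The libraries held 27851677 to 31072338 counts. Expression is given as CPM, the reads of a gene relative to the total of its library after TMM scaling, and CPM per kilobase of the longest coding transcript is used where levels of different genes are compared. All 5 tested genes of a TGFβ response list rose with TGFβ (edgeR adjusted p under the threshold of 0.05), which checks the labels. 8 of 10 fibroblast marker genes fell, none rose, and the least abundant of the 10, *Thy1*, had at least 58.4 CPM in every library. Endothelial markers were present in every library, with a summed level of 445 to 691 CPM with vehicle and 409 to 565 CPM with TGFβ, and 0 of 7 passed the test. Smooth muscle and pericyte markers were higher with TGFβ in sum, at 143 to 173 CPM with vehicle and 176 to 228 CPM with TGFβ. Of the 6, 2 rose, *Cspg4* (log2 fold change 1.45) and *Smtn* (0.29). The other 4 overlapped and did not pass, with log2 fold changes of -0.26 for *Myh11*, 0.15 for *Rgs5*, 0.20 for *Kcnj8* and 0.02 for *Abcc9*. Mesothelial markers summed to 23.0 to 62.2 CPM with vehicle and 14.8 to 34.2 CPM with TGFβ, and 0 of 4 passed. The part of these cell types in the replication values was not tested. The cardiomyocyte genes *Myh6*, *Actn2*, *Myl2* and *Ryr2* were near 0 and not tested, while *Tnnt2* was measured at 26.6 to 58.2 CPM. In bulk RNA, fewer cells in S phase and less of a transcript in each cell cannot be told apart, and that holds for every value below.

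A cell copies its DNA once in each cycle. In G1 phase the origin recognition complex, with CDC6 and CDT1, loads pairs of MCM2 to MCM7 rings onto DNA, a step called licensing. When S phase starts, CDC45 and the GINS complex join each ring to form the moving helicase, DNA polymerase α with its primase lays down primers, and polymerases ε and δ extend them behind a sliding clamp that the RFC complex loads. Most of these genes are known targets of E2F transcription factors, which cyclin E and its kinase release from the retinoblastoma protein late in G1. TGFβ is known to hold many epithelial cells in G1.

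E2F sites are the best known shared letters in front of these genes, so some of the sites found are shown before the expression values. RefSeq's promoter windows for GRCm38.p6, 250 bases before to 50 bases after each start, held an entry for 31 of the 39 genes. The windows were searched on both strands for 4 spellings of the E2F site, TTTCCCGC, TTTCGCGC, TTTGCCGC and TTTGGCGC. A match was found for 14 of the 31 genes (45.2%), against 2.61% of the 27025 genes with a window. Stretches are shown for 5 of the 14, where the match lay before the start and the stretch overlapped no annotated exon. The start is that of the RefSeq window. In the gene annotation *Cdc6* begins at 98907801 and *Uhrf1* at 56303321, so their stretches lie inside the annotated gene. *Uhrf1* has another window, from 56303087 to 56303386, that holds no match. The 5 stretches with matches come from 3 genes that fell (*Mcm5*, *Pola1* and *Uhrf1*) and 2 that did not pass the test (*Cdc6* and *Mcm6*), and the last 2 are the 60 bases before the start of the 2 genes that rose, which hold no match. Capitals mark the E2F letters, and 2 matches on opposite strands overlap in the *Mcm5* stretch and in the first run of the *Mcm6* stretch.
Cdc6, chr11:98907993-98908052, plus strand: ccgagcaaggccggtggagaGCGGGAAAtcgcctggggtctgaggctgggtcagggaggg
Mcm5, chr8:75109336-75109395, plus strand: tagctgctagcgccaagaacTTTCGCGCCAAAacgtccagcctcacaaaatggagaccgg
Mcm6, chr1:128359725-128359835, minus strand: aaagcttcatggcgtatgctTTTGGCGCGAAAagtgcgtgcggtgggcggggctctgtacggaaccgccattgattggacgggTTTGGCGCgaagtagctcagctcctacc
Pola1, chrX:93632254-93632313, minus strand: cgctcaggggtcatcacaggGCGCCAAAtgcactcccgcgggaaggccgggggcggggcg
Uhrf1, chr17:56304108-56304167, plus strand: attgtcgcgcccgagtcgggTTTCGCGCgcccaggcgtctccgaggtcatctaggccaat
Rrm1, chr7:102441635-102441694, plus strand: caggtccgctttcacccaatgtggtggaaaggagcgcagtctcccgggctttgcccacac
Tyms, chr5:30073626-30073685, minus strand: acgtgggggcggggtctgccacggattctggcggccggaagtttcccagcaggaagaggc

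An E2F match was present in 7 of the 15 genes with a window that fell, in 7 of the 14 that did not pass the test and in neither of the 2 that rose. Holding a match to the spellings searched therefore did not separate the genes that fell from those that did not pass. *Ccne1*, a known E2F target that fell, held no match, so a gene without a match can still be an E2F target. How many such genes the search misses was not tested. These counts cannot show whether E2F has a part in the falls, and the 2 genes that rose are too few for a contrast. The CCAAT box, a common promoter element, was found in 17 of the 31 genes (54.8%) against 41.1% of all genes with a window. The CHR element of late cell cycle genes, searched as TTTGAA and TTCGAA, was found in 6 of 31 (19.4%) against 21.7%. A TATAAA box was found in 2 of 31 (6.45%) against 15.7%. These are matches of letters in a window, not measured binding, and the windows of *Mcm4*, *Pole*, *Ccne2*, *Gins1*, *Gins2*, *Gins4*, *Prim2* and *Rfc2* were not analysed here.

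More of the replication genes fell than rose with TGFβ, and nearly as many as fell or rose did not pass the test. 18 of the 39 genes fell and 2 rose, *Rrm1* and *Tyms*, and 19 did not pass the quasi-likelihood test of edgeR, with p-values adjusted by Benjamini-Hochberg over the 14334 genes tested. Over all those genes, 20.1% were called lower and 20.5% were called higher. The median log2 fold change was -0.30 over the 39 genes and -0.0013 over all genes tested, and 33 of the 39 had a negative value. Every TGFβ library lay below every vehicle library for 26 of the 39, where the share over all tested genes was 26.1%. Every TGFβ library lay above for 1, *Tyms*, where the share over all genes was 27.2%. Called falls lay between -0.29 for *Mcm4* and -1.16 for *Tk1* on the log2 scale. Leaving out the TGFβ library of 27851677 counts or that of 28894151 counts brought the 18 calls to 11. Over all genes tested, lower calls went from 2884 of 14334 to 2283 of 14580 and 2361 of 14603 in these fits. Of the 20 replication genes called in either direction, 11 passed in all 12 other settings tried.

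**Figure D1:**
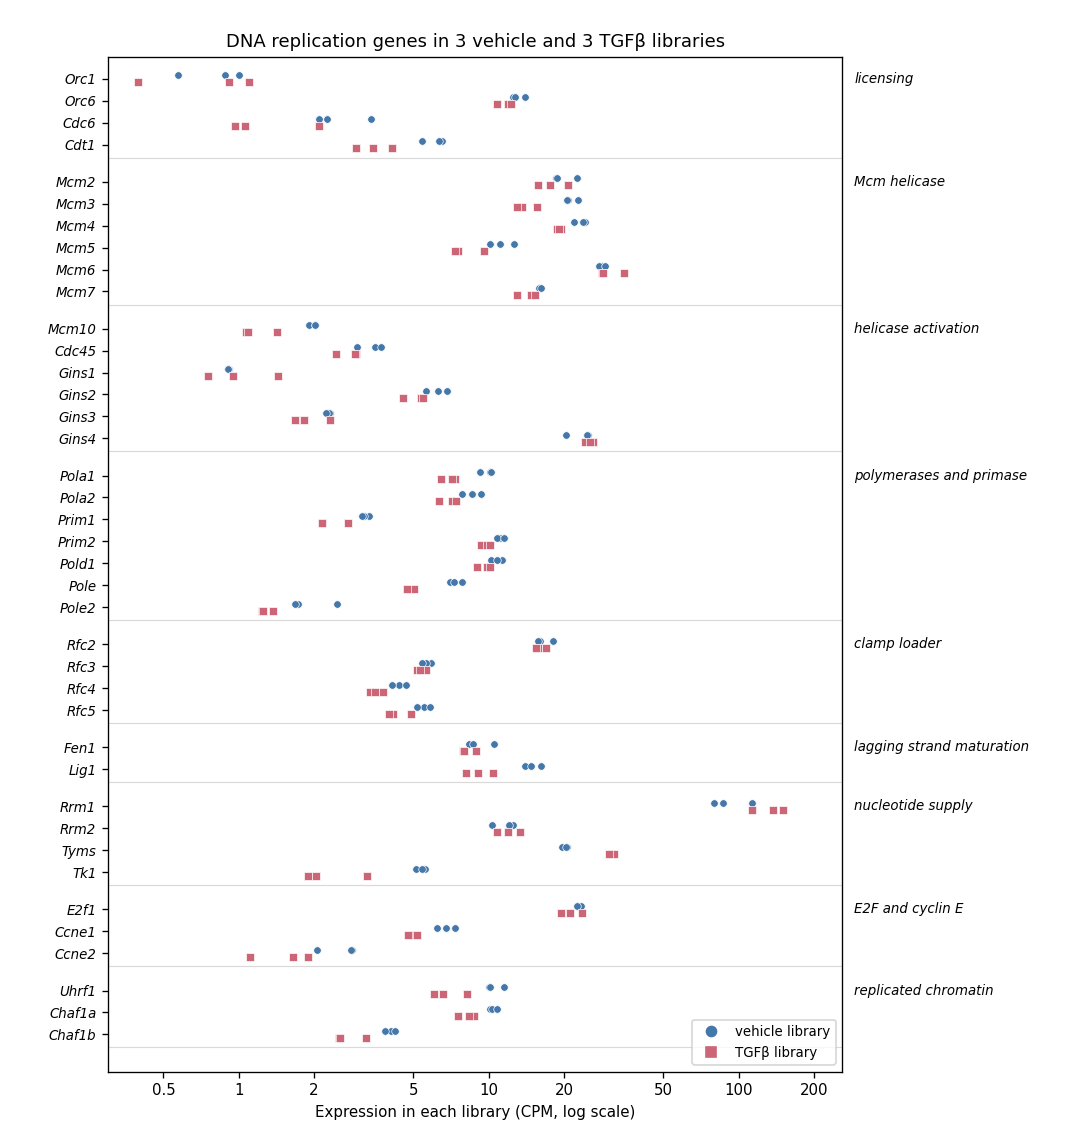
Expression of the 39 replication genes in each library, in CPM on a log axis, with vehicle libraries as blue circles and TGFβ libraries as red squares, grouped by role. *Tk1*, *Cdt1*, *Mcm3*, *Pole* and *Lig1* show TGFβ libraries clear of and below the vehicle libraries, *Tyms* shows the opposite order, and *Mcm6*, *E2f1* and *Rrm2* show libraries that overlap.

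**Figure D2:**
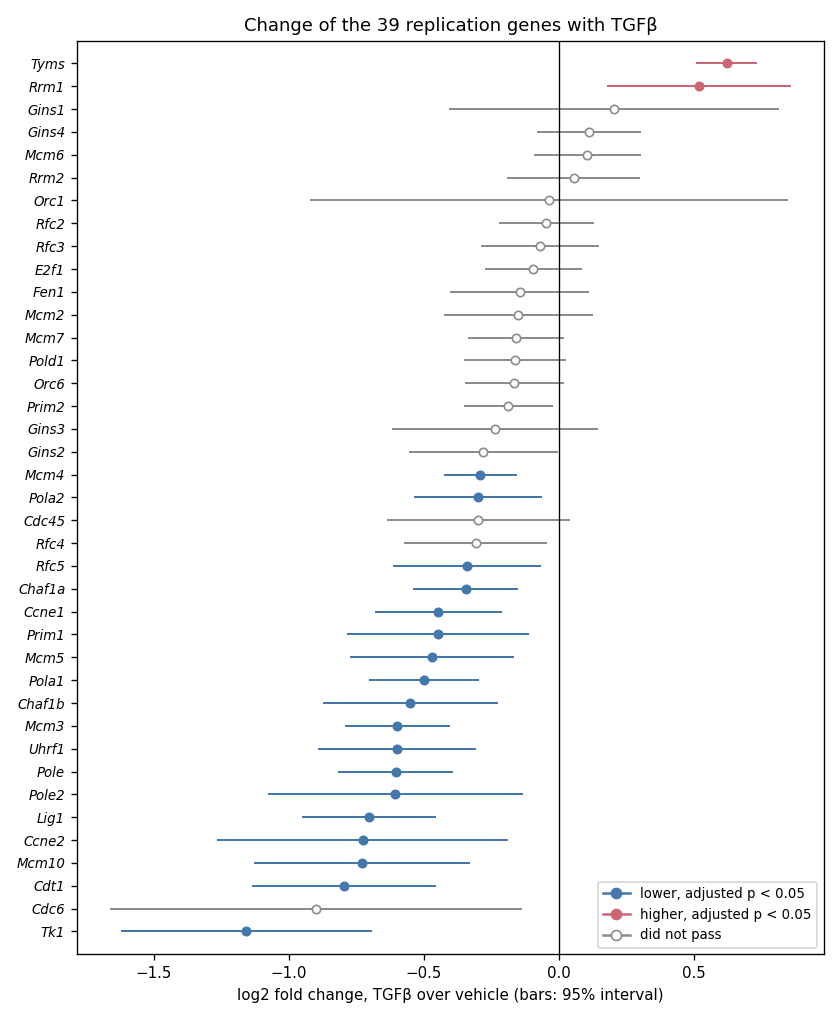
Log2 fold change of each gene, TGFβ over vehicle, with its 95% interval from the edgeR fit. Filled points passed the test (18 lower in blue, 2 higher in red) and open points did not.

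The licensing genes load the helicase before S phase, and 1 of the 4, *Cdt1*, fell. Over all genes tested, 20.1% fell and 20.5% rose, and the counts of each role below are to be read beside those shares. In all values by library below, vehicle libraries stand in the order of 31072338, 29296570 and 29331999 total counts, and TGFβ libraries in the order of 27851677, 28894151 and 28641986. *Cdt1* (ENSMUSG00000006585, chromosome 8 from 122568015 to 122573554 on the plus strand of GRCm38) brings the MCM ring to the origin and is destroyed once S phase begins. Its expression was 5.43, 6.50 and 6.33 CPM with vehicle and 2.96, 3.44 and 4.10 CPM with TGFβ. The groups did not overlap, and the log2 fold change was -0.80 (SE 0.14, edgeR adjusted p = 0.00368). 

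*Cdc6*, the ATPase that joins the origin complex to recruit CDT1, was measured at 2.10, 2.26 and 3.38 CPM with vehicle and at 1.06, 0.966 and 2.10 CPM with TGFβ. Its log2 fold change of -0.90 (SE 0.33, 95% interval -1.66 to -0.14) was larger than that of *Cdt1*, but it did not pass the test (edgeR adjusted p = 0.0605). The spread within its groups was wide, with the last library of each group the highest, and the value passed the threshold in 5 of 12 other settings, among them DESeq2 (adjusted p = 0.0364). *Orc1*, the ATPase subunit of the origin complex that comes and goes with the cycle, was low, at 0.879, 0.573 and 1.005 CPM with vehicle and 1.096, 0.394 and 0.911 CPM with TGFβ. These are 11 to 30 reads in a library, and the interval of its log2 fold change, -0.92 to 0.84, allows a change in either direction. *Orc6*, the smallest origin subunit, was far more abundant, and its log2 fold change of -0.16 did not pass (edgeR adjusted p = 0.130). *Orc6* shares 2.87% of its 75-base windows, mainly with *Vps35* on the other strand, which had 46281 reads against 2179 for *Orc6*.

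The 6 MCM genes encode subunits of the same ring in equal number, yet their transcripts did not move by the same amount. 3 fell, *Mcm3*, *Mcm4* and *Mcm5*, and 3 did not pass, *Mcm2*, *Mcm6* and *Mcm7*. *Mcm3* (ENSMUSG00000041859, chromosome 1 from 20802968 to 20820312, minus strand) had the largest fall. It was expressed at 20.8, 20.6 and 22.7 CPM with vehicle and at 13.6, 13.0 and 15.7 CPM with TGFβ, a log2 fold change of -0.60 (SE 0.08, edgeR adjusted p = 0.000985). All TGFβ libraries lay well below the lowest vehicle library.

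*Mcm6* stood at the other end, with 28.5, 27.7 and 29.3 CPM with vehicle and 28.5, 28.6 and 34.9 CPM with TGFβ. Its groups overlapped, its log2 fold change was 0.11 (SE 0.08, 95% interval -0.09 to 0.30, edgeR adjusted p = 0.350), and the upper end of the TGFβ group is 1 library. The intervals of *Mcm3* and *Mcm6* did not meet, and the difference between these genes was not tested. *Mcm5* fell by 0.47 and *Mcm4* fell by 0.29 on the log2 scale (edgeR adjusted p = 0.0215 and 0.00507), and the *Mcm5* call was lost in 3 of 12 other settings. *Mcm2* and *Mcm7* had log2 fold changes of -0.15 and -0.16 (edgeR adjusted p = 0.346 and 0.130), although the TGFβ libraries of *Mcm7* all lay below. Per kilobase, the vehicle levels of the 6 genes were 3.34 CPM for *Mcm5* and 5.42 to 7.05 CPM for the others. With TGFβ the order changed at the top, where *Mcm6* stood at 7.04 CPM per kilobase, *Mcm3* fell to 4.65 and *Mcm5* to 2.41.

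Helicase activation genes turn the loaded ring into a moving helicase, and 1 of 6, *Mcm10*, fell, against 20.1% of all tested genes. MCM10 binds the ring as it starts to move, and its gene was read at 1.92, 2.02 and 2.01 CPM with vehicle and 1.42, 1.07 and 1.09 CPM with TGFβ. The vehicle libraries were nearly equal and the TGFβ libraries all lower, with a log2 fold change of -0.73 (SE 0.17, edgeR adjusted p = 0.0114). These are 60 to 61 reads in a vehicle library and 30 to 39 in a TGFβ library, so depth limits this value. *Cdc45*, the helicase cofactor, had a log2 fold change of -0.30 that did not pass (edgeR adjusted p = 0.138). It shares 3.96% of its windows, mainly with *Ufd1* on the other strand, which had 8875 reads against 543 for *Cdc45*.

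The 4 GINS genes encode a complex with 1 copy of each subunit, and none passed the test. *Gins2* and *Gins3* had log2 fold changes of -0.28 and -0.24, against 0.21 and 0.11 for *Gins1* and *Gins4*. *Gins4* was measured at 24.9, 24.7 and 20.5 CPM with vehicle and 24.3, 26.0 and 25.4 CPM with TGFβ, with overlapping groups (edgeR adjusted p = 0.308). *Gins1* was near 0.91 CPM in each vehicle library and 0.950, 0.752 and 1.44 CPM with TGFβ, so 1 TGFβ library sets the direction of its mean. Per kilobase, the vehicle level of *Gins4*, 17.3 CPM, was many times that of *Gins1* (0.836), *Gins3* (0.908) and *Gins2* (1.60). The *Gins2* level is per kilobase of a transcript of 3900 bases, and the gene shares 2758 exon bases with *Gse1*. A shorter transcript would give *Gins2* a higher level. *Gins2* shares 70.2% of its 75-base windows with other transcripts, most of them of the antisense neighbour *Gse1*, and its reads are uncertain where counting did not use strand.

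All 7 polymerase and primase genes had every TGFβ library below every vehicle library, where the share over all tested genes was 26.1%. 5 of the 7 fell, where the share over all tested genes was 20.1%. *Pole* (ENSMUSG00000007080, chromosome 5 from 110286306 to 110337474, plus strand) encodes the catalytic subunit of polymerase ε, which copies the leading strand. It was expressed at 7.79, 7.01 and 7.24 CPM with vehicle and at 4.71, 5.05 and 4.73 CPM with TGFβ. Both groups were tight and far apart, with a log2 fold change of -0.60 (SE 0.09, edgeR adjusted p = 0.00149).

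*Pole2*, the second polymerase ε subunit, changed by a like amount (log2 fold change -0.61, SE 0.20) from 1.73, 1.68 and 2.48 CPM to 1.24, 1.25 and 1.37 CPM, and passed the test narrowly (edgeR adjusted p = 0.0444). Its call was lost in 10 of 12 other settings. With an SE of 0.20 against 0.09 for *Pole*, the change of *Pole2* was measured less precisely. The catalytic subunit of polymerase α, *Pola1*, fell by 0.50 and its accessory subunit *Pola2* fell by 0.30 (log2, edgeR adjusted p = 0.00291 and 0.0470), the latter call being lost in 8 of 12 other settings. *Prim1*, which makes the RNA primer, fell by 0.45 (edgeR adjusted p = 0.0385, lost in 7 of 12 settings), while its partner *Prim2* had -0.19 and did not pass (edgeR adjusted p = 0.0654). *Pold1*, the catalytic subunit of polymerase δ that copies the lagging strand, had the smallest value of the 7. It was read at 11.3, 10.2 and 10.8 CPM with vehicle and 9.83, 8.95 and 10.1 CPM with TGFβ, a log2 fold change of -0.16 (SE 0.08, edgeR adjusted p = 0.142).

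The RFC genes encode the loader of the sliding clamp, and 1 of 4, *Rfc5*, fell, against 20.1% of all tested genes. *Rfc5* was measured at 5.50, 5.16 and 5.83 CPM with vehicle and 4.13, 4.01 and 4.87 CPM with TGFβ (log2 fold change -0.34, SE 0.12, edgeR adjusted p = 0.0489). That call sat at the threshold and was lost in 8 of 12 other settings. *Rfc5* shares 17.3% of its windows, mainly with *Wsb2* on the other strand, which had 35749 reads against 866 for *Rfc5*. *Rfc4* had a similar log2 fold change of -0.31 that did not pass (edgeR adjusted p = 0.0606). It shares 9.29% of its windows, mainly with *Eif4a2* on the other strand, which had 20528 reads against 698 for *Rfc4*. *Rfc2* was measured at 18.1, 16.1 and 15.7 CPM with vehicle and 17.0, 15.7 and 15.5 CPM with TGFβ, with overlapping groups and a log2 fold change of -0.05 (95% interval -0.22 to 0.13). *Rfc3* had -0.07 (edgeR adjusted p = 0.586). The clamp itself, PCNA, is not among the 39 genes, and *Pcna* had a log2 fold change of -0.08 (edgeR adjusted p = 0.391).

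Lagging strand maturation joins the short fragments made by polymerase δ. *Lig1* (ENSMUSG00000056394, chromosome 7 from 13277283 to 13311433, plus strand), the ligase that seals them, fell from 13.9, 14.8 and 16.2 CPM to 9.06, 8.09 and 10.4 CPM. The log2 fold change was -0.70 (SE 0.10, edgeR adjusted p = 0.00144), and every TGFβ library lay below every vehicle library. *Fen1*, the nuclease that trims the flap before sealing, was measured at 8.32, 8.63 and 10.5 CPM with vehicle and 7.93, 7.98 and 8.90 CPM with TGFβ, with overlap and a log2 fold change of -0.15 (edgeR adjusted p = 0.330). *Fen1* shares 79.9% of its windows, mainly with antisense transcripts, and was the gene of the 39 with the largest such share. Its main sharing gene, *Gm10143*, had 8 reads against 1529 for *Fen1*. *Tmem258* on the other strand had 7644 reads and shared 130 exon bases. Shares of 10.5% to 20.5% were found for *Mcm7*, *Rfc2*, *Rfc5*, *Ccne2*, *Uhrf1* and *Pole2*, and how the counting treated such reads is not given in the sources used here.

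Of the 4 nucleotide supply genes, *Tk1* fell, *Tyms* and *Rrm1* rose and *Rrm2* did not pass. *Tk1* (ENSMUSG00000025574, chromosome 11 from 117815526 to 117826092, minus strand) encodes the cytosolic thymidine kinase, which salvages thymidine and peaks in S phase. It was expressed at 5.12, 5.56 and 5.43 CPM with vehicle and at 2.05, 1.90 and 3.26 CPM with TGFβ. Its log2 fold change of -1.16 (SE 0.20, edgeR adjusted p = 0.00284) was the lowest of the 39 genes.

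*Tyms* (ENSMUSG00000025747, chromosome 5 from 30058202 to 30073617, minus strand) encodes thymidylate synthase, which makes the same nucleotide anew. It was expressed at 19.6, 20.5 and 20.3 CPM with vehicle and at 30.9, 31.8 and 30.3 CPM with TGFβ. The groups were tight and did not overlap, and the log2 fold change was 0.62 (SE 0.05, edgeR adjusted p = 6.38e-05), the smallest p of the 39 genes. The rise lay between 0.60 and 0.64 in all 12 other settings. The salvage and the synthesis gene for thymidylate thus moved apart, with both changes called in all 12.

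Ribonucleotide reductase makes all 4 DNA precursors from a large subunit, RRM1, and a small subunit, RRM2, that is degraded outside S phase. *Rrm1* (ENSMUSG00000030978, chromosome 7 from 102441695 to 102469771, plus strand) had 113.0, 86.2 and 79.8 CPM with vehicle and 150.0, 137.1 and 112.7 CPM with TGFβ. It rose by 0.52 on the log2 scale (SE 0.15, edgeR adjusted p = 0.0235), although the lowest TGFβ library lay just under the highest vehicle library, and the call was lost in 4 of 12 other settings. *Rrm2* was read at 12.5, 10.3 and 12.0 CPM with vehicle and 12.0, 10.8 and 13.4 CPM with TGFβ, with a log2 fold change of 0.05 (95% interval -0.19 to 0.30, edgeR adjusted p = 0.714). Per kilobase, *Rrm1* had the highest vehicle level of the 39 genes (23.3 CPM), and it weighed on the total. The summed expression of the 39 genes was 462 to 497 CPM with vehicle and 461 to 482 CPM with TGFβ, and without *Rrm1* it was 376 to 395 and 324 to 361 CPM.

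E2F1 and the 2 E cyclins are among the factors that drive entry into S phase. *E2f1* was measured at 22.5, 23.5 and 22.6 CPM with vehicle and 19.4, 21.1 and 23.7 CPM with TGFβ. Its groups overlapped and its log2 fold change was -0.10 (SE 0.08, 95% interval -0.27 to 0.08, edgeR adjusted p = 0.356). Both E cyclin genes, themselves known E2F targets, fell.

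*Ccne1* was expressed at 6.22, 7.35 and 6.73 CPM with vehicle and at 4.97, 4.76 and 5.15 CPM with TGFβ (log2 fold change -0.45, SE 0.10, edgeR adjusted p = 0.00937). *Ccne2* was read at 2.83, 2.06 and 2.81 CPM with vehicle and 1.64, 1.11 and 1.89 CPM with TGFβ (log2 fold change -0.73, SE 0.23, edgeR adjusted p = 0.0370). The *Ccne1* call held in all 12 other settings and that of *Ccne2* in 7. *Ccne2* shares 15.9% of its windows, mostly with *Ints8* on the other strand, which had over 20 times its reads (2255% of the *Ccne2* total).

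All 3 genes for replicated chromatin fell. UHRF1 brings the maintenance DNA methyltransferase to hemimethylated new DNA, and CHAF1A and CHAF1B are subunits of the chaperone that lays histones on it. *Uhrf1* was expressed at 9.99, 10.1 and 11.5 CPM with vehicle and at 6.58, 6.05 and 8.20 CPM with TGFβ, a log2 fold change of -0.60 (SE 0.12, edgeR adjusted p = 0.00666). *Chaf1a* went from 10.1, 10.3 and 10.8 CPM to 8.73, 7.52 and 8.34 CPM, a log2 fold change of -0.35 (SE 0.08, edgeR adjusted p = 0.0120). In both, every TGFβ library lay below every vehicle library. *Chaf1b* fell by 0.55 on the log2 scale (edgeR adjusted p = 0.0149, lost in 2 of 12 settings). *Chaf1a* shares 44.1% of its windows, mainly with *Ubxn6* on the opposite strand, and is uncertain for that reason.

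Where 2 members of a complex or pathway are read in the same library, their ratio does not depend on scaling, and 9 such pairs were tested by exact permutation (two-sided), where 3 against 3 libraries cannot give a p below 0.1. The ratio of *Cdt1* to *Gmnn*, which encodes the CDT1 inhibitor geminin, was lower with TGFβ by 0.70 on the log2 scale, from 0.71 ± 0.13 (SD, n = 3) to 0.02 ± 0.41 (SD, n = 3), with no overlap (exact permutation p = 0.1, adjusted over the 9 pairs 0.45). The ratio of *Prim1* to *Prim2* was lower by 0.27, also with no overlap (exact permutation p = 0.1, adjusted 0.45). The groups nearly touched, as the highest TGFβ log2 ratio was -1.890 and the lowest vehicle log2 ratio was -1.887. *Rrm1* over *Rrm2* was higher by 0.47 with overlapping libraries (exact permutation p = 0.2, adjusted 0.45). For *Pole* over *Pole2* the difference was -0.02 (exact permutation p = 0.9), and it ran from -0.21 to 0.11 with single libraries left out. The other 5 pairs differed by -0.20 to 0.30 and overlapped, and no pair passed after adjustment, which this design does not allow.

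**Figure D3:**
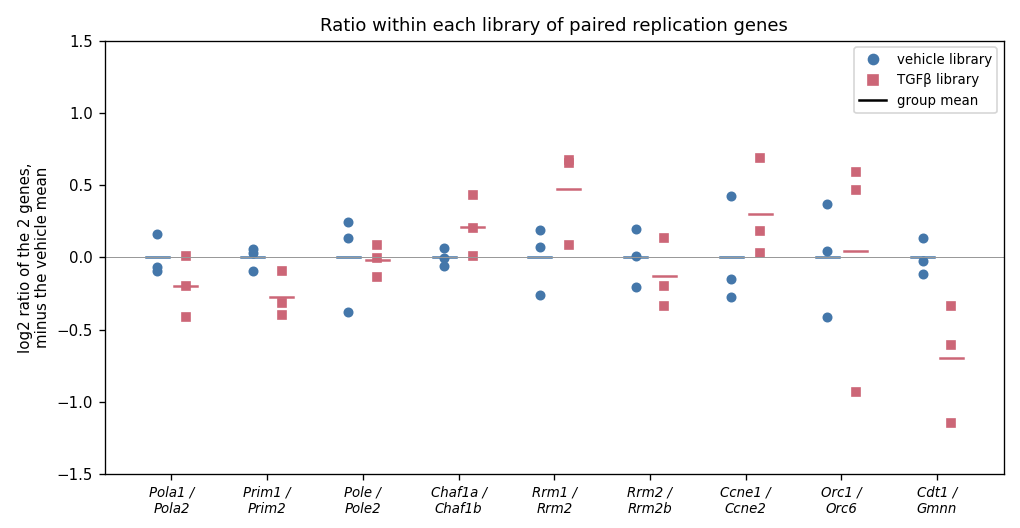
Log2 ratio of paired genes within each library, minus the mean of the vehicle libraries, with lines at the group means. The 3 TGFβ libraries lie below all vehicle libraries for *Cdt1*/*Gmnn* and, by a very narrow gap, for *Prim1*/*Prim2*, and overlap them for the other 7 pairs.

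Other genes of the same machinery moved in both directions. Of 49 further replication genes, 48 were tested, 14 fell and 4 rose, with a median log2 fold change of -0.13. Over all genes tested, 20.1% fell and 20.5% rose. The largest falls were *Ticrr*, which helps fire origins (log2 fold change -0.95, edgeR adjusted p = 0.00822), and *Timeless*, a fork protection factor (-0.73, edgeR adjusted p = 0.00427). The 4 that rose were *Dut*, the dUTPase that makes the substrate of thymidylate synthase (0.61, edgeR adjusted p = 0.000833), *Pole4* (0.50, edgeR adjusted p = 0.000843), *Mtbp* (0.50, edgeR adjusted p = 0.00371) and *Orc4* (0.17, edgeR adjusted p = 0.0265). *Dut* was read at 9.26, 8.90 and 10.1 CPM with vehicle and 15.1, 13.2 and 14.7 CPM with TGFβ, with no overlap.

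Of 36 genes that control replication, 35 were tested, 6 fell and 4 rose, with a median of -0.07, and both shares are below those over all genes tested (20.1% lower and 20.5% higher). The CDK inhibitors *Cdkn2b* and *Cdkn2a* had the largest rises (log2 fold change 1.00 and 0.87, edgeR adjusted p = 0.000287 and 0.00159), and *Cdkn1a* and the E2F gene *E2f5* also rose (0.57 and 0.43, edgeR adjusted p = 0.00525 and 0.0169). *Cdkn1c*, another CDK inhibitor, and *Ccnd1*, which encodes cyclin D1, had the largest falls (-1.38 and -1.19, edgeR adjusted p = 0.000373 and 0.000118). CDK inhibitor genes therefore moved in both directions. A list of 16 genes headed mitosis was not confined to that phase, as it held *Mki67*, *Top2a* and *Ccna2*. Of its 16 genes, 14 fell and none rose, with a median of -0.75. The largest falls were *Mki67* (-0.99, edgeR adjusted p = 2.27e-05) and *Ccnb2* (-0.97, edgeR adjusted p = 0.000435). The median of the 39 replication genes, -0.30, lay between those of the mitosis list and of the other replication machinery. No test of the difference between the lists was made.

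**Figure D4:**
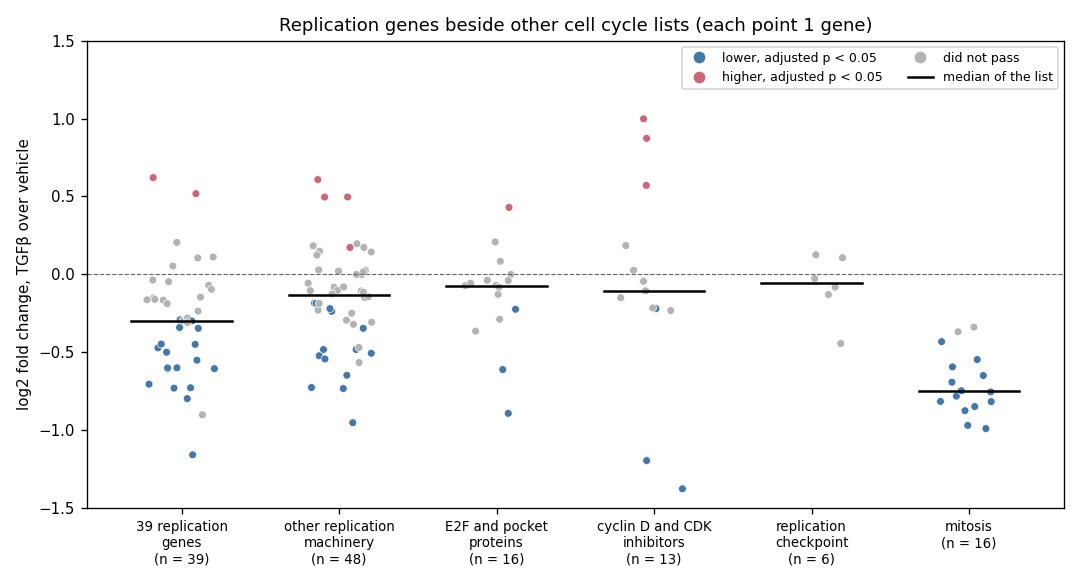
Log2 fold change, TGFβ over vehicle, of every tested gene in the replication genes and in the lists set beside them, with a line at each median. The 39 replication genes have a median of -0.30, the 48 other machinery genes -0.13 and the 16 genes of the mitosis list -0.75.

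Libraries differed within groups. The vehicle library of 29331999 counts was the highest of its group for 18 of the 39 genes, and the TGFβ library of 28641986 counts was the highest of its group for 25. The share of all tested genes that were highest in these 2 libraries was not counted, so these numbers cannot be called particular to the replication genes. The same 2 libraries had the highest summed endothelial markers, 691 and 565 CPM, and the highest summed leukocyte markers, 344 and 312 CPM. Without both, 14 of the 39 genes fell and the same number as before, 2, rose, by the same test with 2 libraries in each group. Over all 14405 genes tested in that fit, 2687 fell and 2671 rose, against 2884 and 2944 of 14334 with all libraries.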

How the data were processed

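Poly(A) RNA was made into stranded libraries by the authors and read single-end over 75 bases, with alignment to mm10 and testing with DESeq2. The aligner, the counting tool and its strand setting are not given in the sources used here. The deposited table holds whole-number counts per gene without normalization. Its columns of the authors' fold changes and p-values were not used.

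From the counts, edgeR 4.0.16 (R 4.3.3) gave TMM factors, a filter on low counts (filterByExpr) and the quasi-likelihood test of TGFβ against vehicle, adjusted by Benjamini-Hochberg over 14334 genes (threshold 0.05). The biological coefficient of variation was 7.97%. DESeq2 1.42.0, limma-voom 3.58.1, other scaling and filters, and each library left out were alternatives. The test was also run on simulated counts with few changed genes and no effect shared across genes of a library. Its error rate in these data was therefore not checked. Shared windows and overlaps come from GENCODE M21.

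The members and lists were chosen with earlier results of these data known. Values by library are given for the largest and smallest change in each role, the S phase regulators and genes against their role's direction. *Cdt1*, *Pole*, *Rrm1*, *Tyms*, *Dut* and *Pcna* were added after their values were seen. The result of 1 gene of the other lists is not reported here.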

Additional observations from a re-analysis of the deposited data

How the results depend on the processing

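No paired analysis was possible because the count columns carry no replicate numbers. With each library left out in turn, 11 to 18 replication genes were called lower, 1 to 2 higher, and 7 to 14 of the other machinery genes lower. Over all genes tested, those fits called 2246 to 2765 lower, against 2884 with all libraries. Omitting the TGFβ library of 27851677 counts or that of 28894151 counts gave 11 calls in place of 18. For the other machinery genes, omitting the former gave 7 in place of 14. Over all genes tested, these 2 fits called 2283 of 14580 and 2361 of 14603 lower, against 2884 of 14334 with all libraries. *Rrm1* lost its call when either of these TGFβ libraries was omitted, or the vehicle library of 29296570 or of 29331999 counts. Other settings gave 14 to 18 replication genes lower and 2 higher, and called 2548 to 2933 of all genes lower. The 14 came from the fit without the 2 libraries highest in endothelial markers, which was chosen after seeing the data. Of the 20 genes called, 11 were called in all 12 settings: *Ccne1*, *Cdt1*, *Chaf1a*, *Lig1*, *Mcm3*, *Mcm4*, *Pola1*, *Pole*, *Tk1*, *Uhrf1* and *Tyms*. The other 9 lost their call in at least 1. *Mcm10* lost it only without those 2 libraries, and *Pole2* in 10 settings. Called genes kept their direction in all settings run. No setting addressed reads that may be shared with a neighbouring gene, as for *Chaf1a*, with 44.1% of its windows shared.

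The direction of 5 uncalled genes turned. With single libraries left out, the log2 fold change ranged from -0.10 to 0.39 for *Gins1*, -0.0056 to 0.16 for *Mcm6*, -0.32 to 0.29 for *Orc1*, -0.089 to 0.018 for *Rfc2* and -0.034 to 0.13 for *Rrm2*, with the lowest values of *Gins1*, *Mcm6* and *Rrm2* when the TGFβ library of 28641986 counts was omitted. Without the endothelial pair it was -0.10 for *Gins1*, 0.022 for *Orc1* and -0.0045 for *Rrm2*. The difference in log2 ratio, TGFβ minus vehicle, ranged from -0.23 to 0.53 for *Orc1*/*Orc6* and from -0.21 to 0.11 for *Pole*/*Pole2*. The cause was not tested. Scaling moved the median of all genes by less than 0.01. Depth limits *Orc1* and *Gins1*, with 11 to 41 reads in a library, and neither was tested at a minimum of 1 CPM in 3 libraries. It also limits *Mcm10*, *Pole2* and *Ccne2*, with 30 to 90 reads in a library, and *Cdc6*, with 27 to 101.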
